A study of Mus musculus with 6 samples.

Results

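The 6 ETS transcription factor genes Erg, Fli1, Ets1, Ets2, Elk3 and Etv6 were described by their DNA methylation in mouse lung endothelial cells. The genes were named as ETS factors with known roles in endothelium, and every 1-kb window that overlaps the RefSeq span of a gene or the 20 kb on either side of it was taken. This gave 976 of the 1683697 windows with a value in all samples, and 6 of 20665 protein-coding genes on the 19 autosomes. The cells were FACS-sorted lung endothelium of WT mice, with 3 aged samples (18 months) and 3 mAdu samples (8 months). Both groups were wild type, and no treatment or transgene is named in the labels. The assay was T-WGBS, whole-genome bisulfite sequencing of DNA that a transposase has cut and tagged, in which bisulfite converts unmethylated cytosines. Values are the mean methylation of a window in percent, averaged over the cells sorted, and positions are on mm10.

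ETS factors bind DNA through a winged helix-turn-helix domain that reads a GGAA core, and many endothelial enhancers carry such cores. Erg and Fli1 are close relatives that keep up endothelial genes such as the junction gene Cdh5. Ets1 and Ets2 are activators that respond to growth factor signalling, Elk3 is a ternary complex factor that works with serum response factor and mostly represses, and Etv6 is a repressor needed for blood vessels of the yolk sac and for blood stem cells. DNA methylation is high over most of the mammalian genome and low at active CpG-rich promoters and at enhancers in use.

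The labelled cell type was set against its marker genes, and the endothelial ones had the lowest median at their ends. The less methylated end of 10 endothelial marker genes, among them Cdh5, Pecam1 and Kdr, had a median of 12.05%, against 63.7% for 8 haematopoietic, 29.6% for 8 epithelial and 26.4% for 8 mesenchymal marker genes. The lists overlapped in single genes. The ends ranged from 0.911% to 33.0% in endothelial and from 17.9% to 83.9% in haematopoietic markers. In epithelial markers the range was 1.86% to 65.8%, and in mesenchymal markers 3.47% to 71.5%. The autosomal mean lay between 73.1% and 73.7% in aged samples and between 73.3% and 73.6% in mAdu samples. The read depth is unknown, so precision rests on the spread between samples. Nothing in the labels states that samples come from different animals. The p-values set a difference between the groups against the scatter of samples within them, which may be technical scatter.

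The sequence at the start sites is shown for Erg, whose 3 RefSeq starts differ in CpG content and in methylation, and for Elk3, whose start lies in the longest low run of the set at a gene end. Each line gives the 250 bases before the start from RefSeq (GRCm38.p6, coordinates as in mm10), 5′ to 3′ on the minus strand, with CpG sites in capitals.

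Erg, the first start, chr16:95586594-95586843: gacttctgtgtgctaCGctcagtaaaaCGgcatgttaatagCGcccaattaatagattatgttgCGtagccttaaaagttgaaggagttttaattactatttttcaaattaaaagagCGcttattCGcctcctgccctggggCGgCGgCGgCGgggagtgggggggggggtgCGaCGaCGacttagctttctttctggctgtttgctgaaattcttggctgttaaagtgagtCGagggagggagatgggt
Erg, the second start, chr16:95530366-95530615: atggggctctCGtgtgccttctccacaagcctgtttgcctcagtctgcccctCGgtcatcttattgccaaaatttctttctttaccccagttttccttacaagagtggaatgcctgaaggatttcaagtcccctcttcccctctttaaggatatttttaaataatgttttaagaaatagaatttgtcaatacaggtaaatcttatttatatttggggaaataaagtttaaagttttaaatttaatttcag
Erg, the third start, chr16:95459349-95459598: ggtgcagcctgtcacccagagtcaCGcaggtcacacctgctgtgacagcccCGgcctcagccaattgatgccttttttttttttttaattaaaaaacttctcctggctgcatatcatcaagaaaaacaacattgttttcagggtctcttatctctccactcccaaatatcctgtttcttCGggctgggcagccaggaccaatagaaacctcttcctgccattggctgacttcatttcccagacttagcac
Elk3 start, chr10:93311160-93311409: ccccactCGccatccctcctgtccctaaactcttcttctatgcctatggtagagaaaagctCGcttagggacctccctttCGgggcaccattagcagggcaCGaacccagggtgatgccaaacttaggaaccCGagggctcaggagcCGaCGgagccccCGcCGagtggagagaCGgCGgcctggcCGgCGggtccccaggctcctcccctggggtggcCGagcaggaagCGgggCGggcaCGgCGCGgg

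The RefSeq promoter table held 4 of the 6 genes, namely Erg, Ets2, Elk3 and Etv6. At the first start of Erg the 300 bases around the start hold 16 CpG sites, and the window read 15.1%, 18.4% and 14.2% in aged samples, against 20.3%, 16.3% and 18.4% in mAdu samples. The second start lies 56.23 kb into the gene, holds 2 CpG sites, and read 81.7%, 85.0% and 79.8% in aged samples, against 80.2%, 72.2% and 73.8% in mAdu samples. The third start lies 127.3 kb into the gene, holds 4 CpG sites, and read 0.925%, 2.08% and 5.98% in aged samples, against 7.38%, 3.01% and 3.66% in mAdu samples. The start furthest inside Erg was thus the least methylated of its starts in every sample, and aged and mAdu samples overlapped at all 3 starts.

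Such a low level is uncommon at a start with so few CpG sites. Of 9291 annotated starts with 0 to 4 CpG sites, 3.49% lay in a window under 10%, and their median was 71.9%. Of 5308 starts with 10 to 19 CpG sites, the class of the first Erg start and of Etv6, 65.3% lay under 10% and the median was 4.57%. The first Erg start stood above that median at 17.1% over the 6 samples. Of 8491 starts with 20 to 99 CpG sites, the class of Ets2 and Elk3, 92.1% lay under 10% and the median was 1.33%. The starts of Etv6, with 17 CpG sites, and of Ets2 and Elk3, with 30 and 31, were all low, like most of their classes. They read 1.13% in aged and 1.79% in mAdu samples at Etv6, 0.883% in aged and 0.202% in mAdu samples at Ets2, and 1.58% in aged and 0.936% in mAdu samples at Elk3 (means, n = 3 each).

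**Figure D1:**
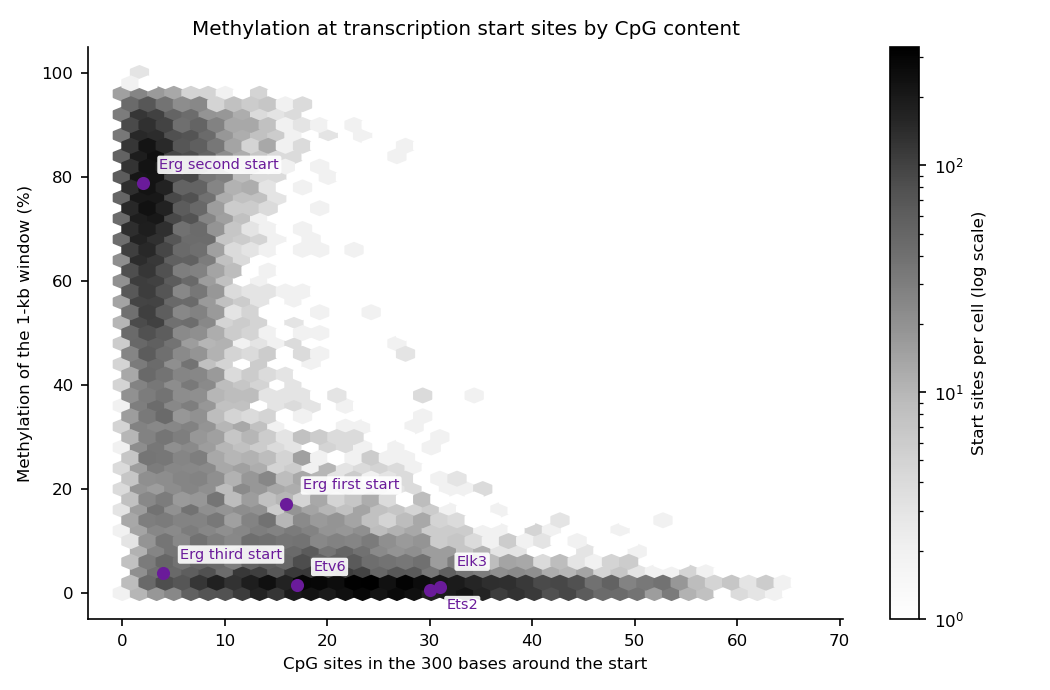
Methylation of the 1-kb window (percent, mean of 6 samples) at annotated transcription starts by the number of CpG sites in the 300 bases around them. Grey cells count starts of all genes on a log scale, and purple points are the starts of Erg, Ets2, Elk3 and Etv6. The third start of Erg has 4 CpG sites and lies at 3.84%, while the second has 2 and lies at 78.8%.

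The 300 bases around each start were searched for GGAA on either strand. It was found in all 6 listed promoters, 3 of Erg and 1 each of Ets2, Elk3 and Etv6. Over all genes it was in 95.9% of 31396 promoters. The longer word CCGGAA, searched on both strands and containing GGAA, was in none of the 6 and in 15.1% of all promoters. These are letter matches and not sites.

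The 6 loci as a whole were less methylated than the genome. Of the 976 windows, 26.2% lay under 50% and 6.86% under 10%, against 9.54% and 1.86% of all windows. The mean was 64.7% over these windows and 73.4% over all. The genes sit in pairs of relatives on 2 chromosomes. Fli1 (chr9:32422204-32543432) ends 92.81 kb before Ets1 (chr9:32636241-32757820), and Erg (chr16:95359169-95586600) ends 115.8 kb before Ets2 (chr16:95702407-95721049). Elk3 lies at chr10:93247415-93311159 and Etv6 at chr6:134035700-134270158.

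In 5 of the 6 genes, the gene was less methylated than its flanks. The gene minus the 20 kb on either side came to -31.6 points in Ets1, -30.7 points in Elk3 and -28.7 points in Ets2, and single samples of these 3 genes lay between -32.0 and -27.1 points. The difference was -8.66 points in Etv6 and -6.23 points in Fli1. Erg read 66.3% both in the gene and in its flanks, and the difference was between -1.71 and 1.21 points in single samples. The flanks of Elk3 and Fli1 read close to those of Erg, at 67.6% and 67.7%, and those of Ets1, Ets2 and Etv6 read 77.2%, 80.9% and 83.1%.

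**Figure D2:**
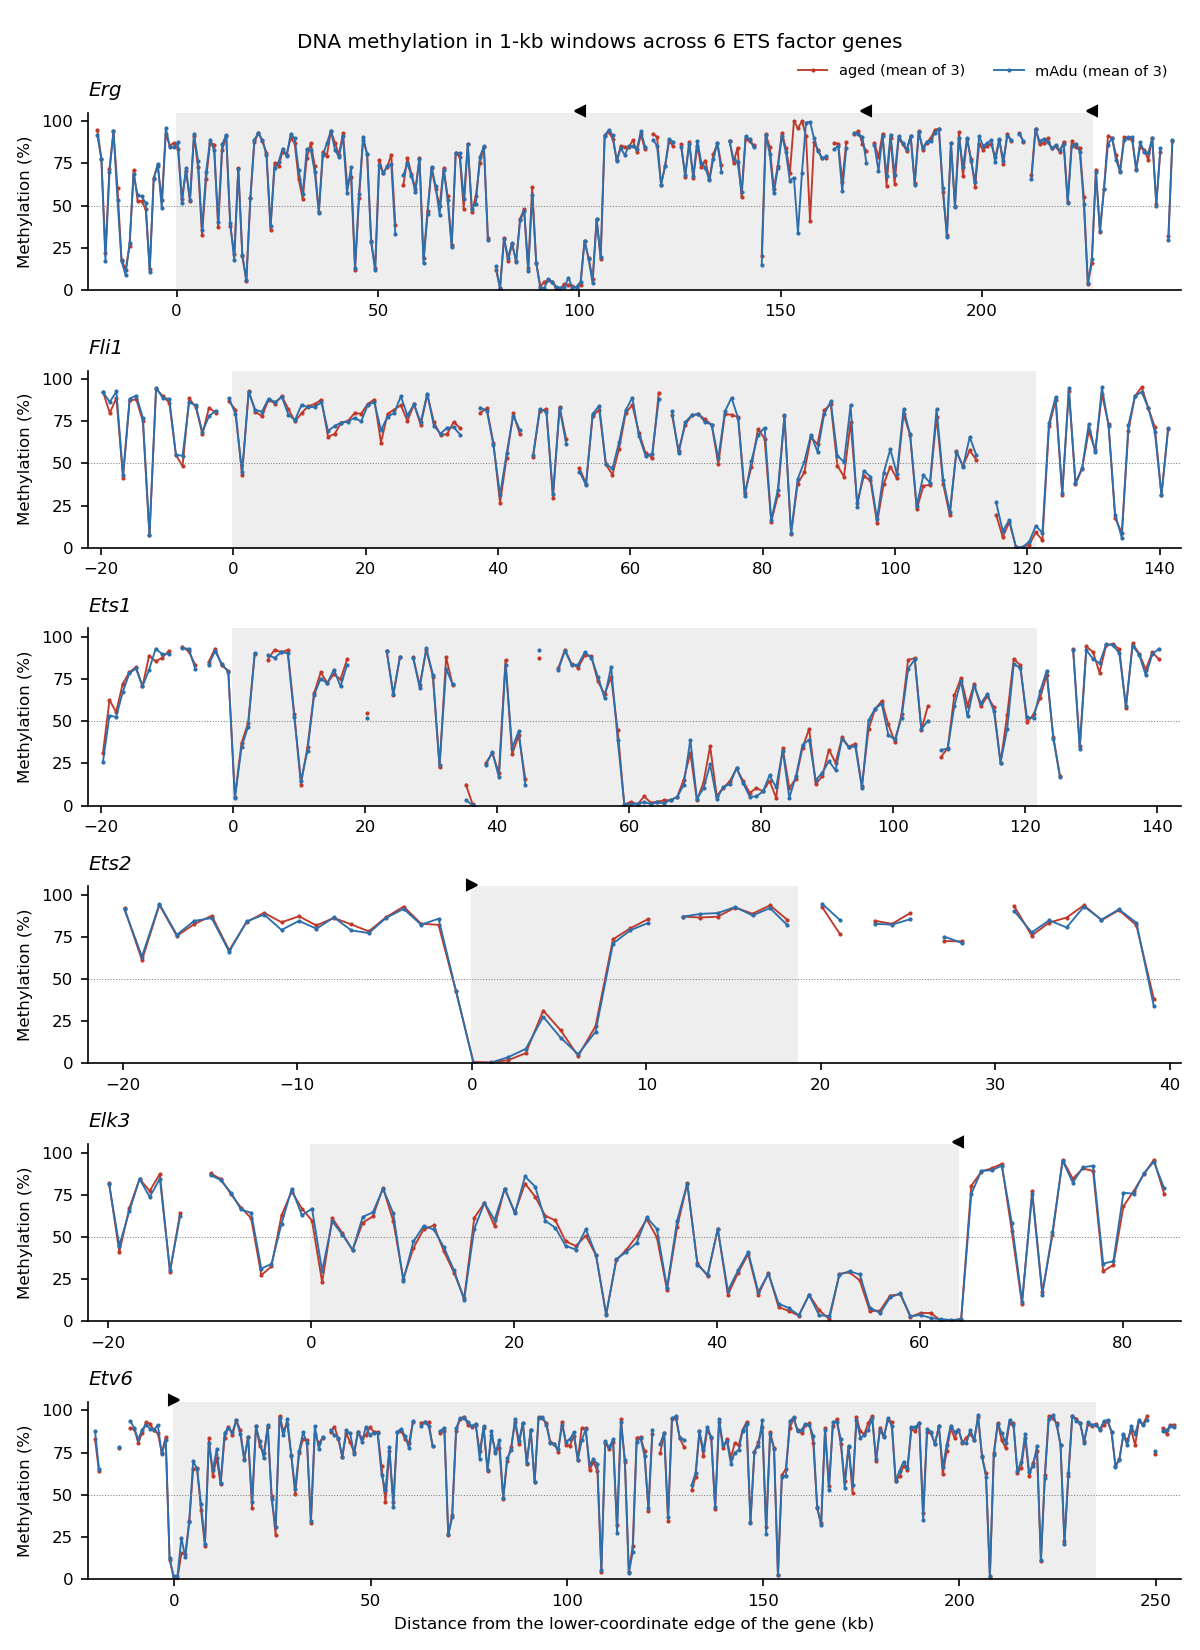
Methylation (percent) of 1-kb windows across the 6 genes and 20 kb on either side, by distance from the lower-coordinate edge (kb). Red lines are means of 3 aged samples and blue lines means of 3 mAdu samples, grey areas are the genes, black triangles are annotated starts pointing in the direction of transcription, dotted lines mark 50%, and gaps are windows with no value. The lines of both groups lie close together in most windows, but part in Erg between 151.8 and 156.8 kb. The window at 153.8 kb there read 95.8% in aged and 33.7% in mAdu samples, and that at 156.8 kb 41.1% and 99.6%. These means hold values that jumped within a group. The SD was 57.4 in mAdu samples at 153.8 kb and 52.1 in aged samples at 156.8 kb (n = 3 each). Neither window passed (adjusted p 0.978 in limma). The low floor of Ets1 from 57.76 to 96.76 kb and the low valley in the middle of Erg are present in both groups.

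Gene bodies, taken from 500 bp inside each edge, ranged widely among the 6 genes. Elk3 had the lowest body, with 36.7%, 36.3% and 38.2% in aged samples, against 38.5%, 37.9% and 36.9% in mAdu samples. Ets1, with 45.7%, 46.3% and 46.5% in aged samples, against 45.5%, 45.4% and 44.5% in mAdu samples, was next. Ets2 read 52.8%, 53.0% and 51.9% in aged samples, against 50.8%, 52.6% and 52.0% in mAdu samples. The order of the levels was Elk3, Ets1, Ets2, Fli1, Erg and Etv6, and no sample of one gene reached the level of its neighbour in that order. Fli1 read 60.6%, 61.1% and 62.1% in aged samples, against 63.6%, 62.2% and 62.1% in mAdu samples. Erg read 67.0%, 65.7% and 66.9% in aged samples, against 67.1%, 66.6% and 64.6% in mAdu samples. Etv6 read 74.5%, 74.3% and 74.7% in aged samples, against 75.3%, 74.8% and 74.6% in mAdu samples, and was the only body of the set above the median of all genes, 73.3%.

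Set beside genes of like length, the low bodies of Elk3 and Ets1 stood out most. Of 2693 genes within 1.5 times the body length of Elk3, 0.223% had a lower body, and of 1746 genes like Ets1 in length 0.458% did. The share was 3.32% for Fli1, 4.005% for Ets2, 5.26% for Erg and 44.1% for Etv6. Windows under 50% made up 62.5% of the body of Elk3 and 54.5% of that of Ets1, where the medians of genes of like length were 8.00% and 8.04%. They made up 44.4% of the body of Ets2, 28.9% of Fli1, 22.6% of Erg and 13.5% of Etv6.

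**Figure D3:**
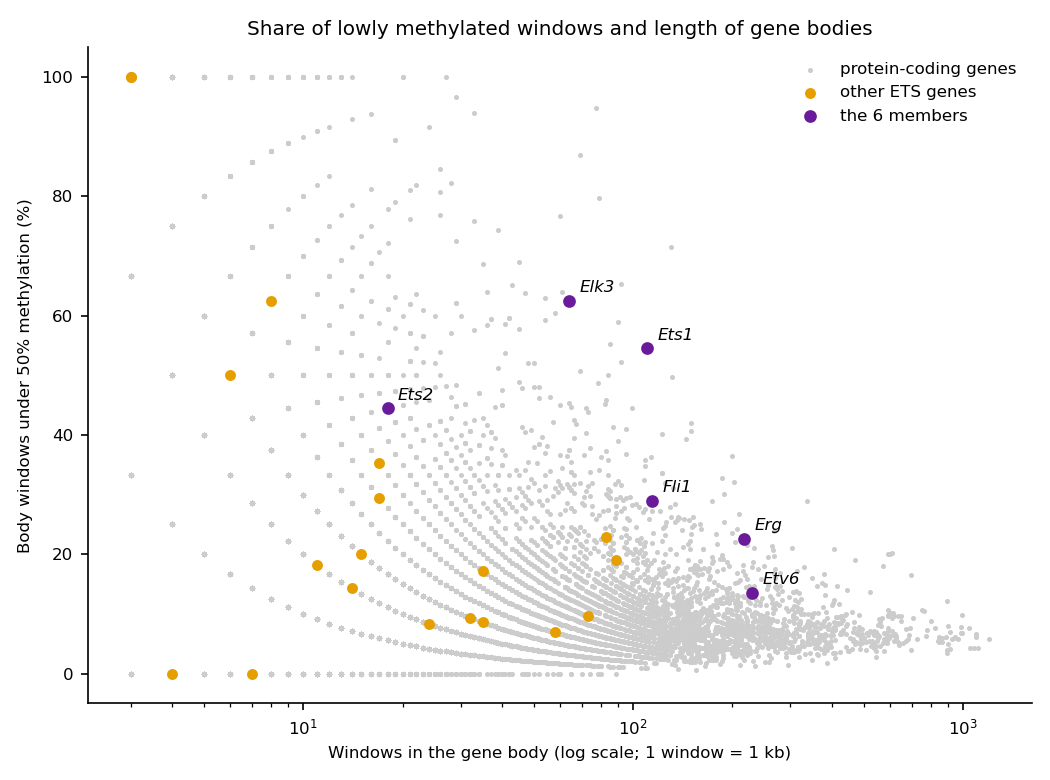
Share of body windows under 50% methylation (percent) against the number of windows in the body (log scale) for 17534 protein-coding genes in grey, 19 other ETS family genes in orange and the 6 genes in purple. Elk3 at 62.5% and Ets1 at 54.5% lie above most genes of their length, and Etv6 at 13.5% lies closer to the bulk.

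The low windows of Ets1 were gathered mostly in one block. An intragenic low stretch was taken as 2 or more adjacent windows whose mean over the 6 samples was under 50%, inside a gene and clear of both its ends. The stretch at chr9:32694001-32733000 in Ets1 ran over 39 kb, from 57.76 to 96.76 kb from the lower-coordinate edge, with 16 windows under 10%. It was the longest of 8955 intragenic stretches and came before 32 kb in Smad6, an inhibitor of BMP signalling, and 31 kb in Gm16867. Its mean was 16.7%, 17.8% and 17.7% in aged samples, against 16.5%, 16.8% and 15.8% in mAdu samples. Drawn from each sample alone the stretch was 38 or 39 kb long, and 1 gene had a longer one in aged replicate 1 and none in the other 5 samples. At limits of 40% and 60% in place of 50% it measured 28 and 40 kb and was still the longest. The promoter table held no start of Ets1, so whether this stretch holds a start inside the gene is not known here.

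The low windows of Erg lay in the middle of the gene. The stretch chr16:95448001-95465000 ran over 17 kb with 12 windows under 10%, and it holds the third start. It read 8.995%, 9.17% and 10.4% in aged samples, against 10.3%, 8.76% and 9.33% in mAdu samples, and 10 genes had a longer stretch. A second stretch of 9 kb at chr16:95438001-95447000, past that start in the direction of transcription, averaged 23.1% in both groups. The single window between them read 58.8%, 56.0% and 68.4% in aged samples, against 55.1%, 58.2% and 56.3% in mAdu samples. At a limit of 60% the stretch therefore became 27 kb long, and at 40% it was 15 kb.

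In Elk3, Ets2, Fli1 and Etv6 the longest low runs held a gene end. The run of Elk3, chr10:93288001-93312000, covered its start and 24 kb, and 36 of 17534 genes (0.205%) had an end run as long. It read 12.2%, 12.4% and 14.0% in aged samples, against 14.4%, 12.5% and 13.0% in mAdu samples. Ets2 had a run of 9 kb over its start, which read 14.6%, 14.1% and 14.5% in aged samples and 13.7% in each mAdu sample. The run over the start of Etv6 measured 6 kb and averaged 12.9% ± 1.25 in aged and 14.5% ± 1.61 in mAdu samples (SD, n = 3 each). Fli1 had a run of 8 kb at its higher-coordinate edge, which averaged 8.51% over the 6 samples. The end runs of Ets1, 3 kb at the lower-coordinate edge, and of Erg, 2 kb at the first start, were short.

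The remaining stretches were small. The 6 genes held 32 intragenic stretches in all, with 8 in Fli1 and 8 in Ets1, 6 in Erg, 5 in Elk3, 5 in Etv6 and none in Ets2. Of these, 22 were 2 kb long, which was also the length of every stretch in Etv6. The longest in Elk3 and in Fli1 were 5 kb. The 8 of Fli1 ranged from 24.2% to 47.3%, so that none was as low as the long blocks of Ets1 and Erg.

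**Figure D4:**
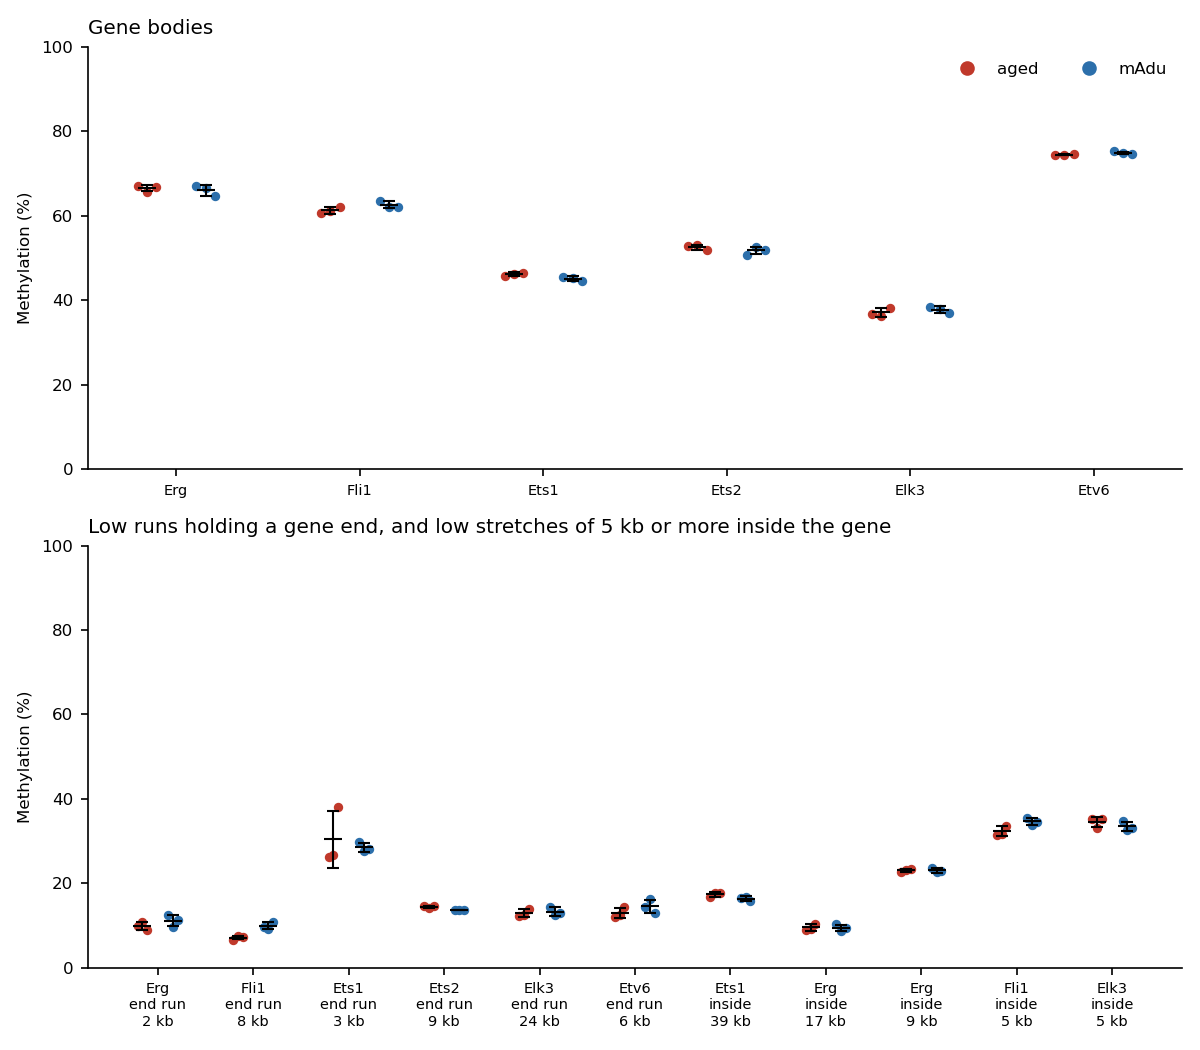
Methylation (percent) in each sample for the 6 gene bodies (top) and for the low runs at gene ends and the intragenic low stretches of 5 kb or more (bottom), with aged samples in red left of mAdu samples in blue. Bars are means and SDs of 3 samples. The body levels of the 6 genes do not overlap each other, and the 8-kb end run of Fli1 lies at 7.13% in aged and 9.88% in mAdu samples.

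The design names age as the comparison, and no window of the 6 loci passed it. The limma test over all windows, with Benjamini-Hochberg adjustment at 0.05, called 0.0211% of all windows and 0 of the 976, where the smallest adjusted p was 0.978. At an unadjusted p under 0.05 there were 43 of the 976 windows, which is near the 4.67% of all windows. In 118 windows (12.1%) aged and mAdu samples did not overlap, against 10% of all windows. Of the 976 windows, 505 (51.7%) were lower in aged samples, as were 51.1% of all windows.

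The 2 neighbours on chromosome 9 leaned in opposite directions. In Fli1, 104 of 154 windows (67.5%) were lower in aged samples, and in Ets1 99 of 146 windows were higher. Over all windows 51.1% were lower. Neighbouring windows of a locus are not independent, and how often other loci lean this far was not tested. After each sample was centred on its own autosomal mean the counts were 99 lower in Fli1 and 101 higher in Ets1. The mean of the Fli1 locus was 61.8%, 62.4% and 63.2% in aged samples, against 64.6%, 63.3% and 63.2% in mAdu samples, a difference of -1.27 points (exact two-sided permutation p = 0.2). The mean of the Ets1 locus was 53.6%, 54.1% and 54.1% in aged samples, against 53.3%, 53.3% and 52.3% in mAdu samples, a difference of 0.985 points (exact permutation p = 0.1, the smallest that 3 against 3 samples allow). Whether the differences of these genes differ from each other was not tested.

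The other 4 loci had smaller differences in their means. The Ets2 locus read 71.7%, 71.5% and 71.6% in aged samples, against 71.3%, 70.6% and 71.3% in mAdu samples, a difference of 0.488 points with no overlap (exact permutation p = 0.1). The differences were 0.459 points in Erg, -0.486 points in Elk3 and -0.414 points in Etv6, with overlapping groups and exact permutation p of 0.6, 0.5 and 0.3. In Erg the sign of this difference turned without mAdu replicate 3, to -0.140 points, and it was 0.213 points without the 6 windows of Erg that held values next to 0% or 100%.

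Gene bodies and gene ends gave no call either. Of all bodies tested with limma 0.0171% were called, and 0 of the 6. At an unadjusted p under 0.05 there were 0 of 6 bodies, where the share over all bodies was 4.97%. The groups did not overlap in 2 of the 6, Fli1 and Ets1, where 10% of all bodies had no overlap. In Fli1 this rested on 62.09% in aged replicate 3 against 62.12% in mAdu replicate 3. The same 2 samples overlapped in the mean of the Fli1 locus, at 63.19% and 63.18%. The difference was -1.35 points (95% interval -3.03 to 0.337) in the body of Fli1 and 1.05 points (-0.418 to 2.51) in that of Ets1, with adjusted p of 0.982 for both in limma. In the body of Erg the difference was 0.437 points, and 0.144 points without those 6 windows. Elk3, the lowest body, differed by -0.653 points (-2.56 to 1.25).

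At the 12 gene ends, measured from 1000 bp outside to 500 bp inside, 0 were called by limma, against 0.00508% of all ends. None had an unadjusted p under 0.05, where 5.02% of all ends did. The groups did not overlap at 1 of the 12, against 10.2% of all ends. That was the start end of Elk3, with 28.03%, 27.1% and 26.9% in aged samples, against 26.3%, 24.2% and 26.7% in mAdu samples. The level of such an end mixes the low start window with a window outside the gene, which in Elk3 read 77.9%. The less methylated ends ordered as Etv6 at 4.81%, Fli1 at 6.76%, Ets2 at 21.7%, Elk3 at 26.6%, Ets1 at 42.1% and Erg at 43.9% over the 6 samples. The neighbours Ets1 and Erg overlapped in that order, as did Etv6 and Fli1. The opposite ends read 84.1% in Fli1, 85.8% in Erg, 88.5% in Ets2 and 90.6% in Etv6. They were lower in Elk3 at 64.0% and in Ets1 at 59.3%. The lower-coordinate edge of Elk3 overlaps the gene Cdk17, and whether this bears on the level there was not tested.

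The low run at the higher-coordinate edge of Fli1 was the region of the set with the clearest gap between the ages among those holding a gene end. It covered chr9:32537001-32545000 and read 6.64%, 7.57% and 7.19% in aged samples, against 9.72%, 9.16% and 10.8% in mAdu samples. Every aged sample lay below every mAdu sample, and the means differed by -2.75 points (95% interval -4.19 to -1.31). Over all 18472 low runs at gene ends, a class added after the data were seen, limma gave it an unadjusted p of 0.00263 and an adjusted p of 0.926, so it was not called. Of the 6 runs 0 were called, against 0.0162% of all, 1 had an unadjusted p under 0.05, against 4.95%, and 2 had no overlap, against 10.5%. The other without overlap was that of Ets2, at 14.4% ± 0.26 in aged and 13.7% ± 0.0142 in mAdu samples (SD, n = 3 each). The narrower end of Fli1 read 5.13% ± 0.765 in aged and 8.40% ± 3.67 in mAdu samples, where mAdu replicate 3 alone stood at 12.5%.

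Of the 8 low stretches inside Fli1, 7 were lower in aged samples, where 49.8% of all 8955 stretches were. The groups did not overlap in 3 of the 8, against 11.2% of all stretches. The 5-kb stretch chr9:32516001-32521000 read 31.5%, 31.7% and 33.7% in aged samples, against 35.4%, 33.9% and 34.6% in mAdu samples. The 2-kb stretch chr9:32529001-32531000 read 27.99%, 28.6% and 28.7% in aged samples, against 31.8%, 30.4% and 30.4% in mAdu samples. Neither passed, with a smallest adjusted p of 0.859 in limma over all stretches. Neighbouring windows and stretches of a gene are not independent, so these counts are a description of 1 locus.

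A small stretch of Ets1 had the smallest unadjusted p of the regions tested in the 6 genes. At chr9:32671001-32673000, 34.76 kb from the lower-coordinate edge and apart from the 39-kb block, aged samples read 5.31%, 6.63% and 7.91%, against 1.81%, 2.35% and 1.01% in mAdu samples. All aged samples were higher, by 4.89 points in the mean (95% interval 3.01 to 6.77). The unadjusted p in limma was 0.00077 and the adjusted p 0.859. The stretch chr9:32752001-32754000 near the other edge read 41.2%, 39.3% and 37.9% in aged samples, against 34.9%, 36.1% and 34.9% in mAdu samples. These were the 2 of 32 stretches with an unadjusted p under 0.05, where 5.58% of all stretches had one. In 6 of the 32 the groups did not overlap, the 3 of Fli1 among them, against 11.2% of all stretches. Limma called 0 of the 32 and 0% of all 8955 stretches. The long blocks differed by 1.01 points (95% interval -0.672 to 2.70) in Ets1 and by 0.0877 points (-1.54 to 1.71) in Erg.

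**Figure D5:**
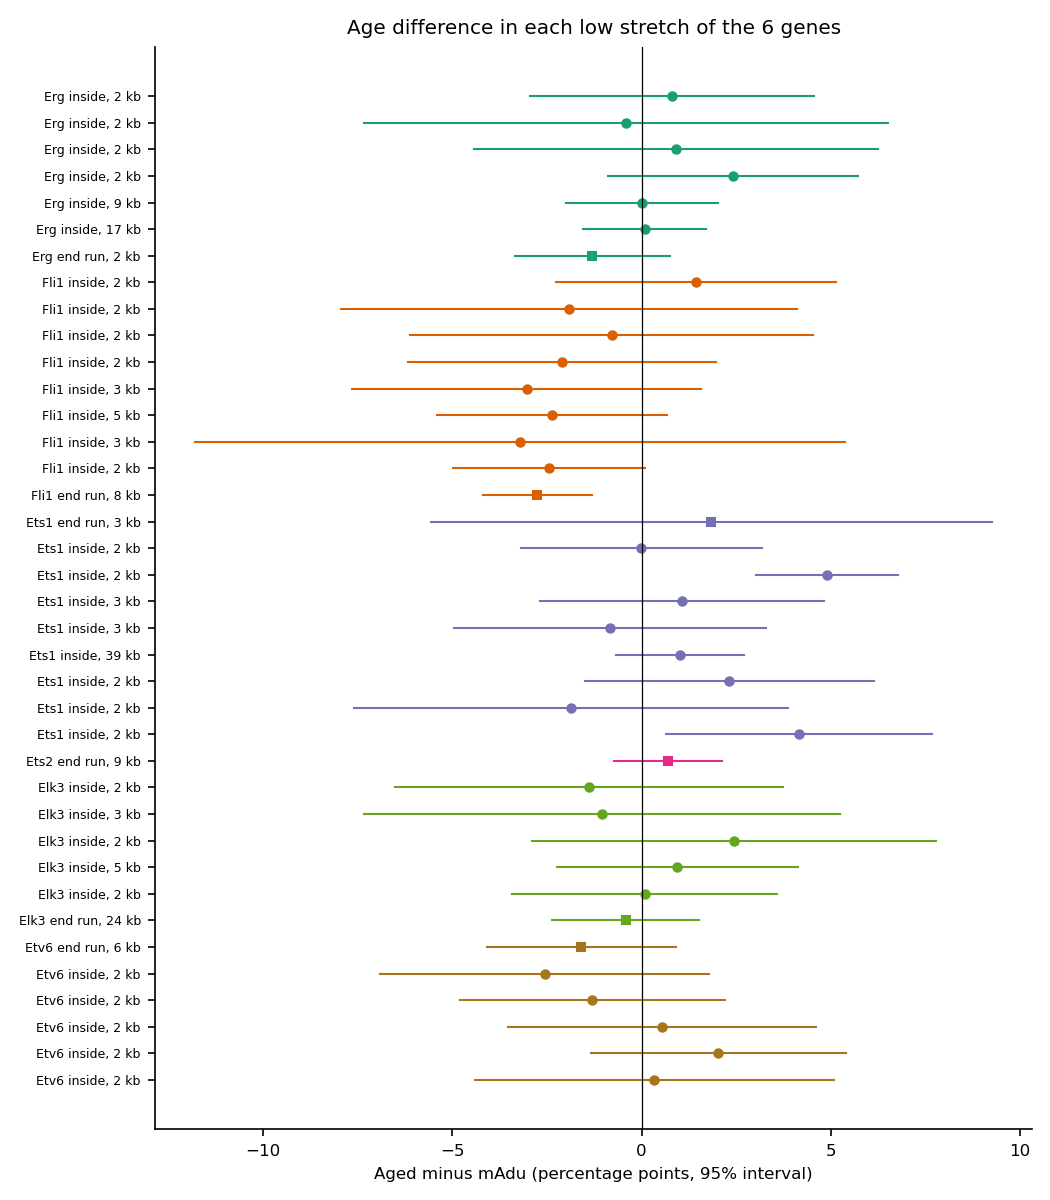
Difference in methylation, aged minus mAdu (percentage points, limma estimate with 95% interval), for each low run at a gene end (squares) and each intragenic low stretch (circles) of the 6 genes, ordered by gene and position. The intervals of the 8-kb end run of Fli1 and of 2 stretches of Ets1 exclude 0 before adjustment, and none passes after adjustment over all runs or all stretches.

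The single windows with the smallest p of each locus did not pass either, all with an adjusted p of 0.978 in limma. In Erg this was the window at chr16:95396001-95397000, with 78.3%, 82.1% and 78.3% in aged samples, against 89.7%, 84.0% and 86.7% in mAdu samples. In Etv6 it was the window just inside the start, chr6:134037001-134038000, with 15.9%, 11.7% and 18.6% in aged samples, against 21.3%, 29.5% and 22.6% in mAdu samples. Both were lower in all aged samples. The Fli1 window at chr9:32497001-32498000 differed by -10.1 points, and the Ets1 window at chr9:32624001-32625000, outside the gene, by -7.53 points. The Ets2 window at chr16:95723001-95724000, past the gene, differed by -8.29 points, and the Elk3 window at chr10:93297001-93298000, in its long end run, by 3.07 points.

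In Erg, 6 adjacent windows from chr16:95511001 to 95517000 held values at or next to 0% or 100% that jumped between samples of one group. The window chr16:95513001-95514000 read 88.4%, 99.7% and 99.5% in aged samples, against 100.0%, 1.22% and 2.63e-06% in mAdu samples. The window chr16:95516001-95517000 read 100.0%, 1.23% and 21.97% in aged samples, against 99.9%, 98.8% and 100.0% in mAdu samples. No other window of the 6 loci held such values. The first of these windows passed without mAdu replicate 1 (95.2 points, adjusted p 0.00393 in limma) and the second without aged replicate 1 (-88.0 points, adjusted p 0.0199), in each case without the sample that stood apart from the other two of its group.

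The other members of the ETS family were read from a list of 21 genes, of which 19 were measured. Their less methylated ends had a median of 27.9%, against 24.1% for the 6 genes, and their bodies 68.9%, against 57.1%. None of the 19 bodies held an intragenic low stretch of 5 kb or more, against 4 of the 6 genes, and the longest was 4 kb in Elf2. The 19 bodies have 3 to 89 windows, against 64 to 217 in those 4 genes, and 3 of the 19 have at least 64. Over all genes, 389 of 17534 bodies (2.22%) held such a stretch. Limma called 0 of the less methylated ends and 0 of the bodies of the 19 genes. It called 0.00508% of all ends and 0.0171% of all bodies, so 0 of 19 says little about these genes.

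Among these 19 genes, Elf1 read 0.55% at its end and 69.5% in its body, and Elk4, a ternary complex factor like Elk3, 18.5% and 61.8%. Gabpa, which serves many housekeeping promoters, read 27.9% and 79.3%. Spi1, the myeloid factor PU.1, read 34.2% at its end and 68.9% in its body, and the B-cell factor Spib 43.3% and 52.3%. The epithelial factors read 65.0% in Ehf, 43.0% in Elf3, 69.8% in Elf5 and 58.7% in Spdef at their ends, with bodies between 61.8% and 81.1%. Etv2, which starts the endothelial programme in the embryo, read 21.5% at its end and 5.66% over a body of only 3 windows.

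Long low blocks inside the gene were also found among endothelial markers. Of 8 marker bodies 3 held an intragenic stretch of 5 kb or more, with 11 kb in Cdh5 as the longest, and their median body was 46.0%. The 8 bodies ranged from 6.001% in Egfl7 to 78.04% in Emcn, with 40.2% in Cdh5, 39.8% in Pecam1, 64.4% in Tek and 67.1% in Tie1.

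Among 12741 genes with at least 10 body windows, those nearest to each of the 6 genes over 12 values, the less methylated end and the body in each of 6 samples, were named by their root mean square difference. For Erg they were Cldn11 at 1.11 points, Rgs8 at 1.13 and AA986860 at 1.25. For Fli1 they were H2bc6 at 1.64 points and Gdf11 at 1.93. For Ets1 they were Aplp1 at 1.66 points, Ecel1 at 2.47 and Ackr3 at 2.63, so that Ets1 had the most distant first neighbour of the set. For Ets2 they were Srrm3 at 1.29 points, Espn at 1.30 and Mmp9 at 1.47. For Elk3 they were Ehd4 at 1.502 points, Bcl9l at 1.84 and Gnai2 at 2.28. For Etv6, which had the nearest first neighbour, they were Plekhg2 at 0.788 points, Dstn at 0.834 and Pyroxd2 at 0.974.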

How the data were processed

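DNA of FACS-sorted lung endothelial cells was read by tagmentation-based bisulfite sequencing from 30 ng per sample, with 100 bp paired reads, per the labels' protocols. BWA 0.7.8 and mm10 are named in the submitters' processing notes, while the CpG caller and any coverage filter, smoothing or averaging were not given in the sources used here. Mean methylation was deposited by the authors as a fraction for 1684140 windows of 1000 bp, with no coverage or CpG number, so depth is unknown and no counting interval could be given. Fractions were multiplied by 100. Between 100 and 443 windows per sample had no value, and 1683697 windows with all 6 values were kept. The titles aged and mAdu were read as the ages of 18 and 8 months in the series' design.

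Gene spans came from RefSeq (GRCm38.p6), and strands and starts from its promoter table. A body needed at least 3 windows, and each region is the unweighted mean of its windows. Windows (1683697), gene ends (39339), bodies (17534), intragenic low stretches (8955) and low runs holding a gene end (18472, added after seeing the data) were each fitted with limma 3.58.1 in R 4.3.3 (variance trend, group as the only term) on the percent scale over all features, with Benjamini-Hochberg adjustment at 0.05. The scripts were tested on simulated data. Locus means were compared by exact two-sided permutation. Alternatives were the logit scale, no variance trend, a replicate block, each sample left out, centred samples, other region limits, and leaving out windows with a value within 0.01 points of 0 or 100%.

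Named were the 6 genes with both ends, bodies, stretches and the window of smallest p, 10 fixed relatives of the ETS family and the 3 most alike genes for each (1 of these is not reported here), beside marker lists. The genes and lists were chosen with earlier results of these data known. No 2 samples were alike beyond r = 0.856 across windows.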

Additional observations from a re-analysis of the deposited data

How the results depend on the processing

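The calls for age were 0 in the windows, ends, bodies and low regions of the 6 genes under every alternative run, except for the 2 Erg windows with values next to 0% or 100%, 1 of which was called without aged replicate 1 and the other without mAdu replicate 1 (0 to 1 when each sample was left out). Over all windows limma called 355. The count was 145 on the logit scale, 59 without windows of extreme values, and 680 to 998 when each sample was left out. Of all gene ends 2 were called (1 higher, 1 lower), and 1 on the logit scale (lower), 1 without a variance trend, 0 with ends of 500 bp outside to 250 bp inside, 1 with 2000 bp outside to 1000 bp inside, 1 without extreme values, and 1 to 14 when each sample was left out. Of all bodies 3 were called (1 higher, 2 lower), 2 in centred samples (1 higher, 1 lower), 1 on the logit scale (higher), 0 without extreme values, and 0 to 3 when each sample was left out. Of all intragenic stretches 0 were called (500 at an unadjusted p under 0.05), 6 with stretches of 1 window or more, 1 with 3 or more, 9 at a limit of 60%, and 1 to 5 when each sample was left out. Of the low runs at gene ends 3 were called (1 higher, 2 lower), 1 on the logit scale (lower), 1 without a trend, 8 without extreme values, and 1 to 7 when each sample was left out.

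Deviations of aged and mAdu samples of the same replicate number correlated at -0.0116, -0.0167 and -0.000645. No pairing by number was thus seen in these values, though a weak one could have been missed. With the replicate block the calls over all features were 185 windows, 1 end, 0 bodies and 1 low run at a gene end, and 0 in the 6 genes.

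With ends of 2000 bp outside to 1000 bp inside, the sign turned to 0.637 points at the lower-coordinate end of Erg, -0.817 and -2.35 at the lower- and higher-coordinate ends of Ets2, -0.574 at the higher-coordinate end of Etv6 and -0.449 at the lower-coordinate end of Fli1. With the narrower ends it turned to -0.0747 at the higher-coordinate end of Etv6. When each sample was left out, the sign turned in the mean of the Erg locus (-0.140 to 0.876 points), the Erg body (-0.300 to 0.934), the ends of Erg (-1.25 to 0.268 and -1.59 to 0.261), the ends of Ets2 (-0.286 to 0.353 and -1.30 to 2.76), the higher-coordinate ends of Ets1 (-2.36 to 1.05) and Etv6 (-0.420 to 0.479), the 17-kb stretch of Erg (-0.363 to 0.490) and the end runs of Elk3 (-0.974 to 0.132) and Ets1 (-2.05 to 3.87). None of these was called, and the cause was not tested. Only some of the intragenic stretches were followed in this way, so for stretches the list is not complete. Without windows of extreme values, an alternative added after seeing the data for locus means, the Erg locus differed by 0.213 points in place of 0.459, and the Erg body by 0.144 in place of 0.437. The differences of Fli1 and Ets1 in the body, of the Fli1 end run and of the 2-kb Ets1 stretch kept their sign in all alternatives run. With 3 samples a group and unknown coverage, differences of a few points in single windows could not be resolved.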

Other observations

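The longest intragenic low stretches of the genome outside the ETS genes lay in a handful of genes. After Ets1 came Smad6, which restrains BMP signalling, with 32 kb at chr9:63955001-63987000 and a mean of 21.7% over the 6 samples. Hdac7, a class IIa histone deacetylase needed for vessel integrity in mice, had 22 kb at 16.4%, and Adgrf5, an adhesion G protein-coupled receptor of lung, had 22 kb at 17.8%. Tbx15, a T-box factor of the developing skeleton, had 20 kb at 13.4%, and Pde4b, which breaks down cyclic AMP, had 20 kb at 19.8%. The Gm16867 stretches of 31 and 28 kb, the second shared with Gm21451, were less clear, at 37.5% and 28.004%. Zdbf2, with 20 kb at 34.8%, and Loxl2, with 18 kb at 37.3%, were less clear too.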
